A study of Arabidopsis thaliana with 210 samples.

Results

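Transposable elements are stretches of DNA that can move or be copied within a genome, and plants keep most of them silent through DNA methylation, histone H3 lysine 9 methylation and small RNAs. In RNA-directed DNA methylation, ARGONAUTE proteins such as AGO4, AGO6 and AGO9 carry small RNAs that guide methylation to matching elements. Many elements also lie within or beside genes, so that RNA counted on an element can come from a transcript of its own or from a longer transcript that runs across it.

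The elements described here were the 1362 annotated elements, of 31189 in the table (4.37%), that recurred in Smart-seq2 nuclei. To be a member, an element needed 5 or more counts in 3 or more of 186 nuclei prepared with Smart-seq2, and 0 counts in both negative control wells. Membership therefore rests on the counts of the Smart-seq2 nuclei and the control wells, and all values from those wells are given as descriptions. The 2 bulk wells and the 20 Smart-seq3 nuclei had no part in the choice. Each element is named by its identifier, in which the digit after AT is the chromosome. Positions, families and sequences of the elements were not used here.

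The study addresses ARGONAUTE proteins in the shoot apical meristem of Arabidopsis thaliana ecotype Col-0, with nuclei from the shoot apices of seedlings 7 days after germination, grown on soil. All wells are labelled as stem cells, and no mutant or treatment is named. Single nuclei were sequenced with Smart-seq2 (93 labelled p1 and 93 labelled p2) or Smart-seq3 (8 p1 and 12 p2), both of which read along whole transcripts. The p1 and p2 labels are not explained. There was 1 bulk well of each p number, labelled as 50 nuclei although its column name holds the number 10, and there were 2 negative control wells of p2 with 0 nuclei. No plant, pool or sort is named for a nucleus, so each group is a single sample. Differences between groups could not be tested, and no p-value is given. Intervals are exact 95% intervals for counting error only, since no molecular identifiers are stated to enter these counts.

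Depth ranged from 1362 to 8102382 counts on genes in p1 Smart-seq2 nuclei and from 153 to 1236901 in p2, with 36 p1 and 12 p2 nuclei under 50000. In bulk, genes had 1945890 counts in p1 and 1253317 in p2. All elements together, members or not, amounted to 23.2% and 40.8% of the gene counts in the 2 negative control wells and to a median of 21.9% in p1 Smart-seq3, against medians of 0.730% for p1 and 2.06% for p2 with Smart-seq2, and 2.01% in p2 Smart-seq3. The p1 Smart-seq3 nuclei thus stood apart, and their values are given apart from those of p2, except in counts that combine wells. The stem cell marker CLV3 reached 5 counts in 15 p1 and 5 p2 Smart-seq2 nuclei and the organising centre gene WUS in 1 and 2. RBCS1A, a photosynthesis gene of green tissue, reached 5 counts in 93 and 87 and had 5 counts over the control wells. CLV3, the marker of the labelled cell type, was thus seen in a minority of the nuclei, with those under 50000 counts included. Among other markers of the shoot apex, the meristem gene STM reached 5 counts in 18 p1 and 26 p2 nuclei. The organ primordium gene FIL did so in 14 and 17, and the epidermal layer genes ATML1 and PDF1 in 29 and 30 and in 72 and 46.

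Most members were found in few nuclei. The median was 5 of 186 nuclei (quartiles 3 and 8), 276 members were found in 10 or more and 94 in 20 or more. Only 1 member, AT5TE11315, reached 5 counts in more than 93 nuclei. It was found in 144 nuclei, and the next element, AT5TE40480, in 75. The 94 members found in 20 or more nuclei made up 6.90% of the members and held 60.1% of the 900631 member counts in Smart-seq2 nuclei. At the edge of the rule, 366 members had exactly 3 such nuclei with a median of 66 counts in all. Outside it, 705 elements had 2 such nuclei and none of the control counts, with a median of 35 counts. The third highest count was exactly 5 in 90 members and exactly 4 in 121 elements just outside.

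The members came from all 5 chromosomes in near equal proportion. Their share of a chromosome's elements ran from 3.98% on chromosome 2 (237 of 5949, 3.50 to 4.51%) to 4.67% on chromosome 1 (333 of 7135, 4.19 to 5.18%), and the median number of nuclei was 5 on every chromosome. Another 102 elements met the count in at least 3 nuclei and were kept out by a count in a control well. They were found in a median of 70.5 nuclei, and 46 of them in 100 or more. AT4TE03415 led them, with at least 5 counts in 175 nuclei and 421 and 103 counts in the control wells. The condition on the control wells therefore removed most of the elements that were found nearly everywhere.

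Counts on a member were usually carried by a few nuclei. The nucleus with the most counts held a median of 37.3% of a member's Smart-seq2 counts (range 3.66 to 97.6%). In 343 members it held over 50%, and in 7 over 90%. That nucleus was of p2 for 852 members and of p1 for 510. Low counts in p1 moved with the well number. For 75 members with at least 500 counts in a p1 well, the other wells were split by number into those that shared a block of 8, or a remainder by 8, with the highest well and those that did not. Of the former, 21.5% had 1 to 4 counts, against 9.33% of the latter. At 5 counts or more the shares were 12.8% and 13.1%, so over these 75 members together the pattern was not seen at that count. In p2, with 15 such members, the shares were 6.04% and 5.29% at 1 to 4 counts. At 5 counts or more they were 22.64% and 22.96%. These shares are pooled, so they cannot show whether the pattern reached 5 counts for single members. The cause of the pattern was not tested.

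Counts on elements can be uncertain where near-identical copies share reads. Values that are not whole numbers made up 28.4% of all member values above 0 in Smart-seq2 nuclei, against 6.77% for nuclear genes. They were unevenly spread, since 825 members had whole values throughout and in 300 members over 50% of the values above 0 were not whole. How a read was assigned where an element overlaps a gene is not given in the sources used here. Why values were not whole was not tested.

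The number of members found in a nucleus moved with its depth. The 93 p1 Smart-seq2 nuclei had 0 to 149 members with at least 5 counts (median 33), and the 93 p2 nuclei had 0 to 288 (median 63). No member reached 5 counts in 23 p1 and 9 p2 nuclei, and among nuclei under 50000 counts the highest number was 14. Across nuclei, Spearman's rho between this number and the total counts on genes was 0.84 in p1 (93 wells) and 0.90 in p2 (93 wells). When every nucleus was thinned to 130000 counts on genes, a depth chosen after seeing the data, the medians were 19 members in p1 (quartiles 16 and 26, 57 nuclei, 36 left out) and 39 in p2 (quartiles 30 and 57, 81 nuclei, 12 left out). The bulk wells thinned in the same way had 24 members in p1 and 67 in p2, and the p2 Smart-seq3 nuclei a median of 19 (10 nuclei, 2 left out). At matched depth, p2 thus lay above p1 in the Smart-seq2 nuclei and in the bulk wells, whereas the p2 Smart-seq3 nuclei had the median of the p1 Smart-seq2 nuclei. The rule had taken in 392 members with 5 counts only in p2 Smart-seq2 nuclei and 41 only in p1. Thinned numbers of all elements or of genes are not given here, so this difference cannot be read as particular to the members.

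**Figure D1:**
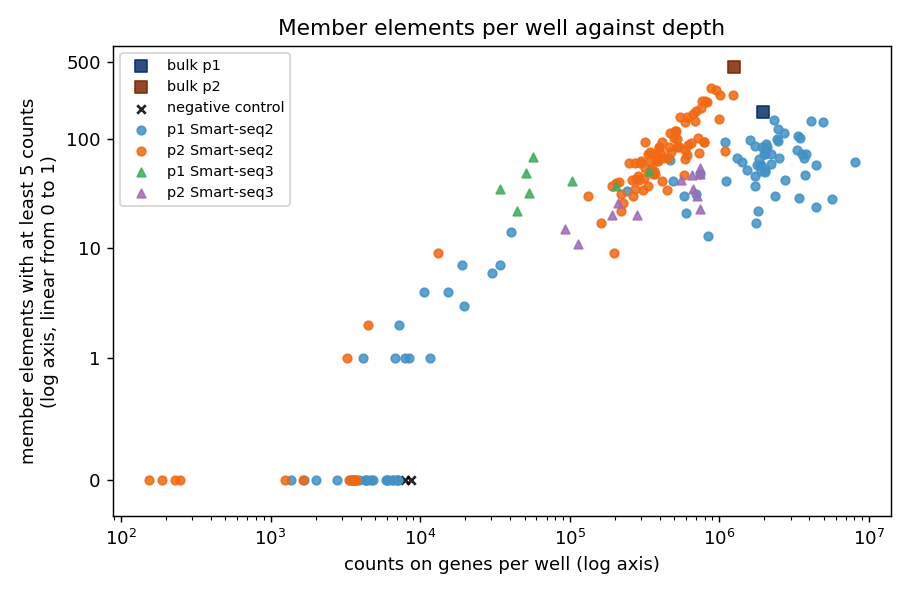
Number of member elements with at least 5 counts in each well (y axis, log scale with a linear part from 0 to 1) against its counts on genes (x axis, log scale). Each symbol is 1 well. The p2 Smart-seq2 nuclei reach 288 members, the p1 Smart-seq2 nuclei reach 149 at greater depth, and the control wells are at 0 by the rule.

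Whether the members were found again in wells that had no part in the choice was examined in the bulk wells. At least 5 counts were present for 176 of the 1362 members in the p1 bulk well (12.9%, 11.2 to 14.8%), where 0.834% of all elements had them. In the p2 bulk well the number was 454 (33.3%, 30.8 to 35.9%), where 2.18% of all elements had them. With a minimum of 1 count, the numbers were 384 in p1 and 889 in p2, where 2.18% and 6.69% of all elements had one. Elements with a Smart-seq2 count that were not members reached 5 counts more rarely, at 1.25% of 6023 in p1 and 3.05% in p2. The share went up with the number of Smart-seq2 nuclei. In the p2 bulk well it was 14.7% for members found in 3 to 4 nuclei, 35.6% for 5 to 9, 60.4% for 10 to 19 and 86.2% for 20 or more (81 of 94). In the p1 bulk well it was 2.88%, 9.49%, 28.6% and 63.8% in the same order. Elements found in exactly 2 nuclei reached 2.23% in p1 and 8.79% in p2, so there was no break in this course at the limit of 3 nuclei.

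Nuclear genes picked by the same rule were found again more often. Of 29417 nuclear genes, 17447 (59.3%) met it, and 79.9% and 78.7% of these had at least 5 counts in the p1 and p2 bulk wells. At the same number of nuclei, 3 to 4, the shares of genes were 35.6% and 35.8%, and at 20 or more nuclei 97.8% and 97.0%. For genes the 2 bulk wells gave nearly the same shares, whereas for members the p1 share was lower than the p2 share in every class. Fewer nuclei with an RNA and less of it in each nucleus cannot be told apart in a bulk well.

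In Smart-seq3 nuclei, at least 5 counts in at least 1 nucleus were present for 157 members in p1 (11.5%, 9.88 to 13.3%), where 3.57% of all elements had them, and for 216 members in p2 (15.9%), where 1.52% had them. With a minimum of 1 count these numbers were 373 and 385, where 14.8% and 7.79% of all elements had one. The p1 share at 1 count thus lay nearer to that of all elements than the p2 share did. For members found in 20 or more Smart-seq2 nuclei the shares were 40.4% and 59.6%. In all, 510 members had at least 5 counts in a bulk well and 311 in a Smart-seq3 nucleus, while 21 had them in both bulk wells and in both Smart-seq3 groups. At the other end, 286 members had 0 counts in all of these wells, including 1 found in 33 Smart-seq2 nuclei. These combined numbers were not counted over all elements, so they cannot be read as particular to the members.

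**Figure D2:**
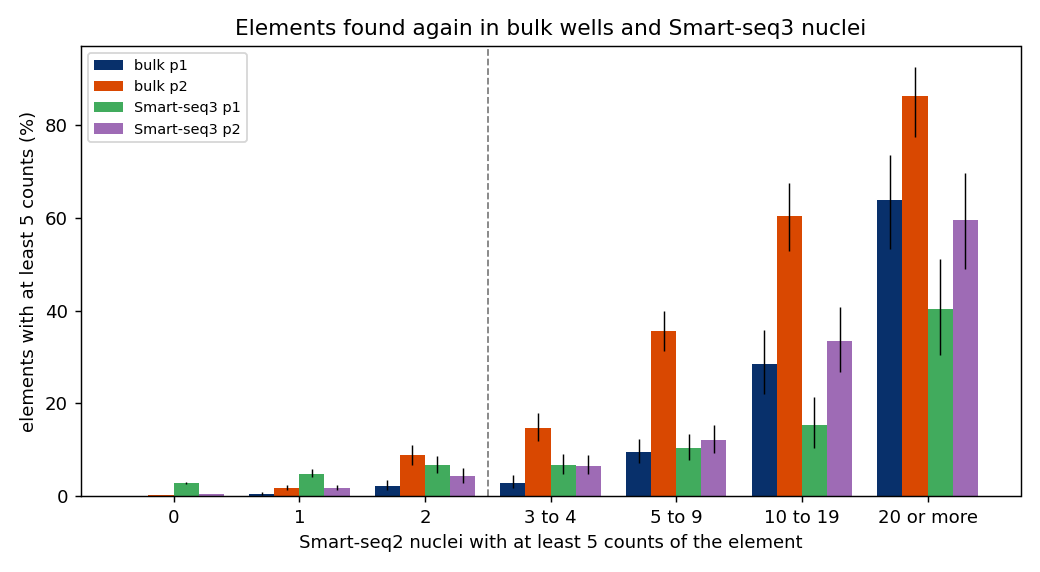
Share of elements with at least 5 counts in each bulk well, or in at least 1 Smart-seq3 nucleus of each p number (y axis, percent, bars with exact 95% intervals), by the number of Smart-seq2 nuclei with at least 5 counts (x axis). Classes right of the dashed line are members. In the p2 bulk well the share is 14.7% at 3 to 4 nuclei and 86.2% at 20 or more.

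The p1 and p2 wells differed in how much RNA the members had. In Smart-seq2 nuclei the members held 0.182 to 0.868% of the gene counts in p1 (median 0.420%) and 0.0270 to 1.82% in p2 (median 0.767%). The p1 bulk well had 0.378% on members (0.369 to 0.386%) and the p2 bulk well 0.981% (0.964 to 0.998%). All elements together amounted to 0.530% in the p1 and 1.56% in the p2 bulk well, and to medians of 0.730% and 2.06% in Smart-seq2 nuclei. In these wells the lower share in p1 was thus seen over all elements and was not particular to the members. The 12 p2 Smart-seq3 nuclei had a median of 0.645% on members (0.146 to 1.20%). The 8 p1 Smart-seq3 nuclei had 1.55% (0.714 to 2.81%), which was the highest median of the groups, but members were only 10.7% of all element counts there, against 64.3% and 44.9% in the p1 and p2 nuclei of Smart-seq2.

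Member by member, the summed p1 Smart-seq2 nuclei lay below the summed p2 nuclei for 1193 members and above them for 169, in CPM (counts per 1000000 counts on genes). The median log2 ratio of p1 over p2 was -3.45, with a count of 0 entered as 3 counts. Among the 1193 members with at least 50 counts over both sums, 793 (66.5%) were beyond 4-fold lower in p1, where 65.2% of all such elements were, and 55 (4.61%) beyond 4-fold higher, where 10.1% were. Of the 568 such elements that are not members, 62.5% were beyond 4-fold lower in p1 and 21.5% beyond 4-fold higher. Without the limit of 50 counts, 67.6% of the members and 80.9% of the elements that are not members were beyond 4-fold lower in p1. The order of members and other elements thus turned with this limit. The p1 sum was deeper than the p2 sum, so a count of 0 entered at a lower level in p1. Elements with few counts could therefore be called lower in p1 more easily than higher. The shares without the limit cannot be read as a difference between members and other elements. Nuclear genes chosen by the same rule had a median of -0.09.

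The bulk wells, which did not choose the members, gave the same direction. The list itself leaned to p2, since 392 members reached 5 counts only in p2 Smart-seq2 nuclei and 41 only in p1. The bulk direction over the members is therefore not independent of the rule. Elements that are not members had a median log2 ratio of p1 over p2 of -1.56 in the bulk wells. Of 569 members with a ratio, 479 were lower in the p1 bulk well and 90 higher, with a median log2 ratio of -1.86. Beyond 4-fold, 258 members (45.3%) were lower in p1, where 40.3% of all elements were, and 26 (4.57%) were higher, where 3.37% were. Of 322 elements with a ratio that are not members, 31.4% were beyond 4-fold lower in p1 and 1.24% higher. The median of nuclear genes by the same rule was -0.03 between these wells. Members with whole values throughout had a bulk median of -1.86 and the others -1.63. The p number and anything else that differed between these 2 wells cannot be told apart.

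Smart-seq3 gave the other direction. Of 335 members with a ratio of summed nuclei, 225 were higher in p1 and 110 lower, with a median log2 ratio of p1 over p2 of 3.03. Over all elements that median was 4.27, and the p1 Smart-seq3 nuclei were those with a median of 21.9% of element counts relative to gene counts. The part of that background in the members' ratio was not tested.

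At least 5 counts in both bulk wells were found for 120 members, which is 68.2% of those found in p1 and 26.4% of those found in p2. In the p1 bulk well alone there were 56 and in the p2 bulk well alone 334, and 404 members had 0 counts in both, which allows up to 1.54 CPM in p1 and 2.39 CPM in p2. Of all 31189 elements, 260 reached 5 counts in the p1 bulk well and 679 in the p2 bulk well. The overlap of the wells was not counted over all elements, so these numbers cannot be read as particular to the members.

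**Figure D3:**
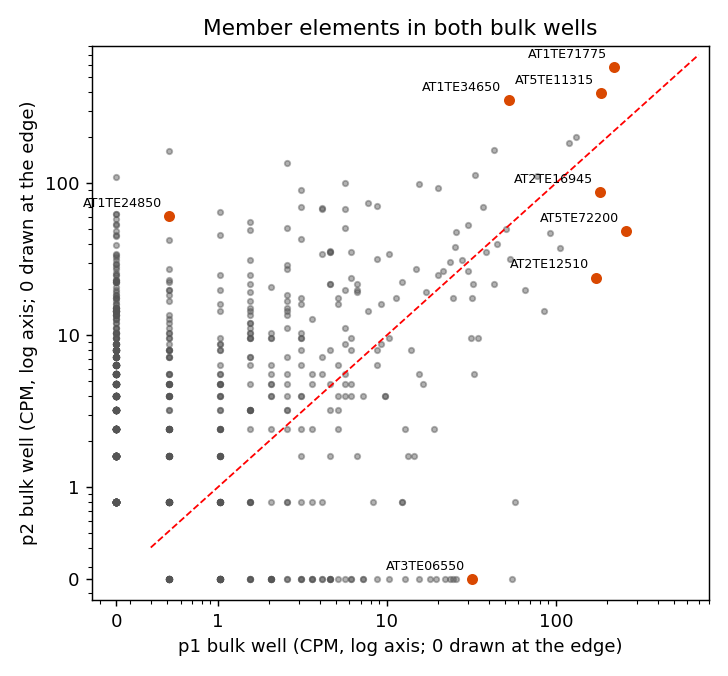
Level of each member in the p1 bulk well (x axis) and the p2 bulk well (y axis), in CPM on log scales, with values of 0 drawn at the edge and members at 0 in both left out. Each point is 1 member, the dashed line marks equal levels, and orange points carry names. Most points lie above the line, and AT5TE72200, AT2TE16945 and AT2TE12510 are among those below it.

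AT5TE11315 was the member found in the most nuclei. It had 0 to 1840 counts in p1 Smart-seq2 nuclei (median 213), 0 to 599 in p2 (median 147), 359 and 488 in the p1 and p2 bulk wells and 0 in both control wells. It reached 5 counts in all 57 p1 and all 81 p2 nuclei with at least 50000 counts on genes. In those nuclei its level had a median of 182 CPM in p1 (quartiles 156 and 237) and 410 CPM in p2 (quartiles 275 and 523), close to the bulk levels of 184 CPM (166 to 205) and 389 CPM (356 to 425). No other member reached 5 counts in more than 75 nuclei. Its log2 ratio of p1 over p2 was -0.98 in the sums (-1.01 to -0.95) and -1.08 in the bulk wells (-1.28 to -0.88). Of its Smart-seq2 values above 0, 64.7% were not whole numbers. In Smart-seq3 it was low, with 0 to 22 counts in p1 (summed level 40.7 CPM) and 0 to 20 in p2 (15.4 CPM).

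Among the other members found in many nuclei, some reached 5 counts in similar shares of the p1 and p2 nuclei with at least 50000 counts on genes. AT3TE63065 had 0 to 3000 counts in p1 nuclei (median 2) and 0 to 668 in p2 (median 0), with 256 and 253 in the bulk wells. It reached 5 counts in 32 p1 and 39 p2 nuclei, and in those its median was 375 and 194 counts. AT1TE41790 had 0 to 9899 counts in p1 (median 1) and 0 to 709 in p2 (median 1), with 233 and 232 in the bulk wells. It was found in 29 and 40 nuclei, and 1 nucleus held 30.5% of its Smart-seq2 counts. In nuclei with at least 50000 counts on genes, AT3TE63065 reached 5 counts in 52.6% of p1 and 48.1% of p2, and AT1TE41790 in 49.1% and 49.4%. Unlike AT5TE11315, each was thus below 5 counts in a large part of the deep nuclei. In CPM, both were lower in the p1 than in the p2 bulk well. The bulk log2 ratios of p1 over p2 were -0.62 (-0.87 to -0.36) for AT3TE63065 and -0.63 (-0.90 to -0.36) for AT1TE41790. In the Smart-seq2 sums the ratios were -0.51 and -0.26. All AT1TE41790 values were whole, and 9.01% of the AT3TE63065 values above 0 were not.

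AT2TE45280 was found in 26 p1 and 41 p2 nuclei, with up to 1078 and 499 counts, and had 84 and 208 counts in the bulk wells. In Smart-seq3 it never reached 5 counts, at 0 to 4 in p1 and 0 in p2. AT1TE71775 had the highest level of any member over the bulk wells, with 432 counts in p1 (222 CPM, 202 to 244) and 727 in p2 (580 CPM, 539 to 624). It was found in 41 p1 and 18 p2 nuclei, and its counts there reached 2581 and 2645. The p2 sum was the higher although fewer p2 nuclei had it, with a log2 ratio of p1 over p2 of -1.14 (-1.17 to -1.11), and the bulk ratio was -1.39 (-1.56 to -1.21).

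For 6 of the 20 members found in the most nuclei, grouped after their values were seen, the p1 Smart-seq3 level lay above both Smart-seq2 sums. AT5TE40480 was found in 20 p1 nuclei, with at most 41 counts, and in 55 p2 nuclei, with up to 377. It had 0 and 49 counts in the bulk wells. In Smart-seq3 it had 0 to 897 counts in p1 (summed level 1318 CPM, 3 of 8 nuclei) and 0 to 554 in p2 (372 CPM, 9 of 12 nuclei), against 75.6 CPM in the p2 Smart-seq2 sum. AT4TE14145 was found in 14 p1 and 43 p2 nuclei and had 3 and 39 bulk counts, with 885 CPM in p1 and 180 CPM in p2 Smart-seq3. AT3TE56760 was found in 24 and 38 nuclei and had 1 and 29 bulk counts, with 200 and 53.6 CPM. AT1TE51820 was found in 34 and 25 nuclei and had 3 and 14 bulk counts, with 56.5 and 3.68 CPM, so for it only p1 Smart-seq3 lay above the Smart-seq2 sums of 8.06 and 8.15 CPM. AT3TE63065 had 445 CPM in p1 Smart-seq3, of which 1 nucleus held 390 of 394 counts, against 162 and 231 CPM in the Smart-seq2 sums. AT2TE20075 was found in 22 and 29 nuclei and had 18.1 CPM in p1 Smart-seq3, against 4.73 and 11.4 CPM in the sums. Values above 0 that were not whole made up 74.2 to 97.6% in the first 4 of these 6 elements, 9.01% in AT3TE63065 and 0% in AT2TE20075.

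**Figure D4:**
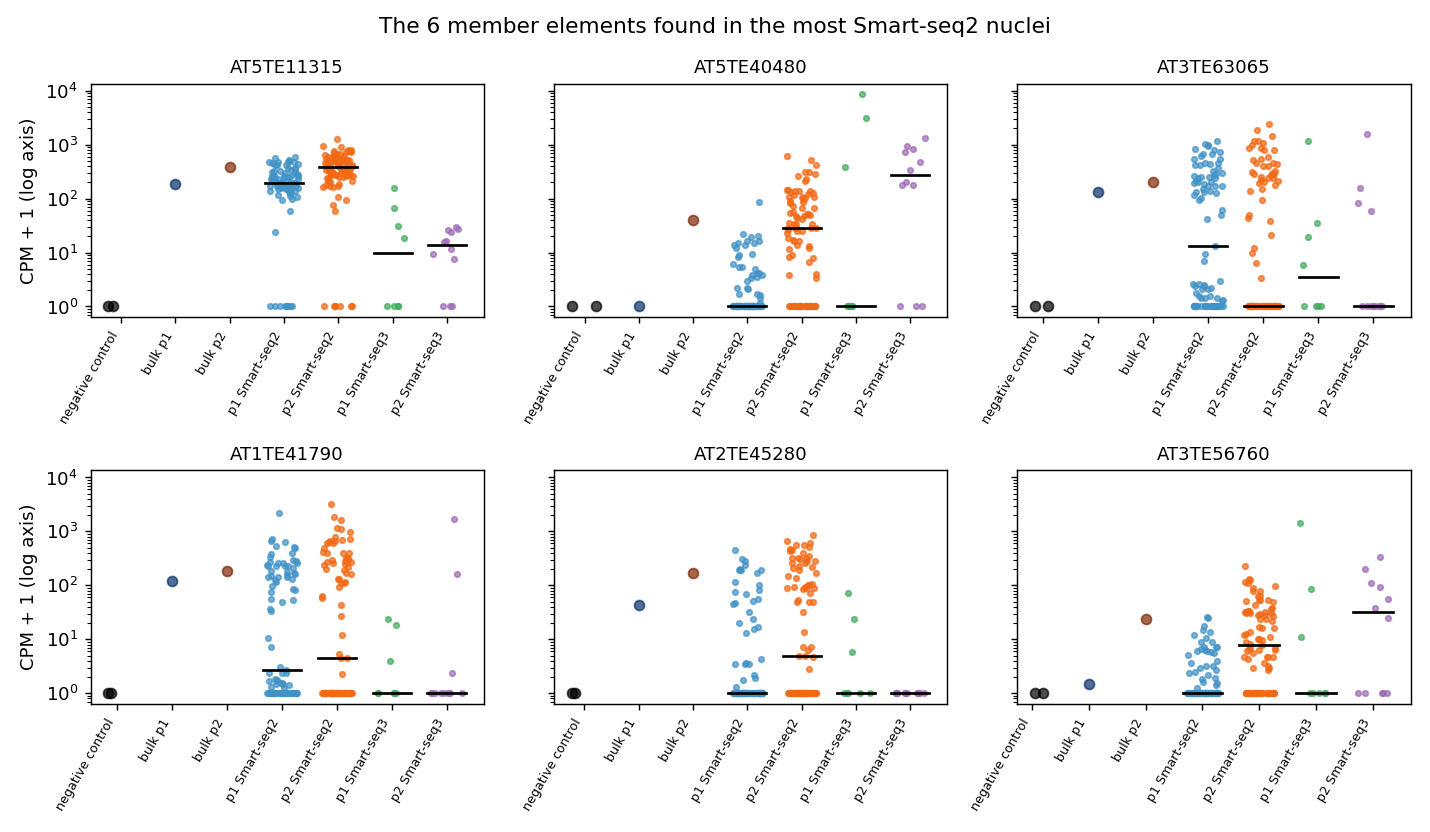
Level of the 6 members found in the most Smart-seq2 nuclei, in CPM plus 1 on a log axis, for each well (points) by group, with the median of each group of nuclei as a bar. AT5TE11315 is present in nearly all Smart-seq2 nuclei, whereas the other 5 elements are at 0 in many nuclei of each group.

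A set of members went against the general direction and had more RNA in p1. AT5TE72200 was found in 35 p1 and 22 p2 nuclei, and had 505 counts in the p1 bulk well (260 CPM, 237 to 283) and 61 in p2 (48.7 CPM, 37.2 to 62.5). AT2TE16945 was found in 44 and 17 nuclei, with 356 and 109 bulk counts. AT3TE32730 was found in 50 and 9 nuclei, with 84 and 27 bulk counts. For all 3 the log2 ratio of p1 over p2 was above 0 in the sums, at 1.53, 2.02 and 2.65, and in the bulk wells, at 2.41 (2.03 to 2.82), 1.07 (0.76 to 1.40) and 1.00 (0.36 to 1.69). AT2TE12510 was found in 13 p1 and 7 p2 nuclei and had 337 and 30 bulk counts, a bulk log2 ratio of 2.86 (2.31 to 3.45).

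The opposite case was AT1TE24850, found in 58 p2 nuclei but in only 4 p1 nuclei. Its counts reached 39 in p1 and 46 in p2, and the bulk wells had 1 and 76. Its log2 ratio of p1 over p2 was -5.43 in the sums (-5.79 to -5.09) and -6.88 in the bulk wells (-12.20 to -4.36, from 1 p1 count). AT1TE34650 had 102 and 444 bulk counts and was found in 11 and 15 nuclei, with ratios of -2.67 in the sums and -2.76 in the bulk wells (-3.08 to -2.44). AT4TE18385 had 8 and 86 bulk counts, a ratio of -4.06 (-5.32 to -3.02).

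The extreme ratios of the sums came from members found in few nuclei. The 5 lowest were AT1TE65205, AT1TE23740, AT4TE42905, AT4TE31850 and AT2TE07550, each found in 4 to 8 p2 nuclei and in 0 p1 nuclei. AT1TE65205 had 1 count in all p1 nuclei and 478 in p2, a log2 ratio of -10.68 (-15.99 to -8.19). AT4TE42905 had 0 and 988 counts, which puts its log2 ratio at -10.14 or below, with 3 counts over all p1 nuclei as the limit. Their bulk counts were 0 to 4 in p1 and 6 to 41 in p2, so the p2 bulk well held each of them. The 5 highest were AT5TE32420, AT3TE75490, AT3TE48810, AT3TE60310 and AT3TE82555, with at most 3 counts in all p2 nuclei and log2 ratios of at least 5.84 (AT3TE82555, with 0 p2 counts) to 7.09 (AT5TE32420). AT3TE48810 was found in 26 p1 nuclei and had 9 counts in the p1 and 0 in the p2 bulk well. The other 4 were found in 3 or 4 p1 nuclei, had bulk counts of 0 to 4, and had 66.3 to 78.8% of their counts in 1 nucleus.

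Bulk wells were also set against the summed Smart-seq2 nuclei of the same p number. Over 428 p1 members with a ratio, the median log2 of bulk over sum was 0.30, and it was close to 0 in p2 (1023 members, 511 above and 512 below 0). Beyond 4-fold, 8.79% of 330 members were higher and 12.1% lower in the p1 bulk well, where 8.7% and 11.7% of all elements with 50 counts were. In p2 the shares were 5.31% higher and 8.31% lower of 866 members, where 5.29% and 9.78% of all such elements were. Most of those elements are members themselves. Of the elements that are not members, 8.46% of 130 were higher and 10.8% lower in p1, and 5.22% of 249 higher and 14.9% lower in p2. Without the limit of 50 counts, their median log2 ratio was 0.88 in p1 (216 elements) and 1.50 in p2 (795 elements), above the medians of the members. An element with 0 bulk counts got a ratio only if its summed level reached that of 3 bulk counts, 1.54 CPM in p1 and 2.39 CPM in p2. Elements low in the sums thus entered only with bulk counts, which raises all these medians. Members and other elements therefore cannot be compared by them. Without each member's top nucleus the medians were 1.46 in p1 and 0.89 in p2. For AT4TE19530, 1 p1 nucleus held 12385 of the 22178 p1 counts. Its log2 ratio of bulk over sum came to -2.31 for p1 (-2.69 to -1.96) and to 0.04 for p2 (-0.21 to 0.28).

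Smart-seq3 gave a set of leading members that was partly its own. AT3TE06550 was found in 5 p1 and 6 p2 Smart-seq2 nuclei, with summed levels of 2.04 and 14.5 CPM. It had 0 to 3078 counts in p2 Smart-seq3 nuclei (median 1.5, summed level 1081 CPM) and 0 to 278 in p1 (339 CPM). AT3TE73430 was found in 3 Smart-seq2 nuclei and had 0 counts in both bulk wells. In Smart-seq3 it reached 5 counts in 11 of 12 p2 nuclei, at 3 to 440 counts (median 80.5), and in 4 of 8 p1 nuclei, at 0 to 118 counts (median 31.5). AT3TE92210 was found in 13 p2 Smart-seq2 nuclei with at most 21 counts. In p1 Smart-seq3 it had 0 to 105 counts (median 66.5) and reached 5 counts in 6 of 8 nuclei, and its summed level was 529 CPM there against 12.1 CPM in p2 Smart-seq3. AT5TE55640 had 3 to 306 counts in p1 Smart-seq3 (479 CPM) and 0 to 16 in p2 (3.33 CPM), with 39 and 116 counts in the bulk wells. No negative control well was made with Smart-seq3, so the background of these levels was not measured.

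Members with neighbouring numbers were often members together. Identifiers of elements are numbered in order within a chromosome, and 407 of the 1362 members (29.9%) had a member as the next or the previous element in that order, where 8.27% of all elements had one. The 226 pairs of neighbouring members shared a mean of 21.8% of the nuclei in which either was found, against 3.81% for the 188699 other pairs of the same chromosome. At least 50% was shared by 31 neighbouring pairs and by 102 of the other pairs. The longest run was 6 members, from AT1TE71770 to AT1TE71795, and included AT1TE71775. Levels within the run were unlike, from 50 Smart-seq2 counts for AT1TE71785 to 39876 for AT1TE71775, and AT1TE71790 was found in 36 nuclei.

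Pairs with the most alike patterns were taken among the 276 members found in 10 or more nuclei, as Pearson's r of log2(CPM + 1) over the 186 nuclei after the mean of each p number had been taken off. The median r over 37950 pairs was 0.04, and 51 pairs reached 0.5. Of the 12 highest, 5 were neighbours in number. AT5TE38705 and AT5TE38710 had r of 0.82 and were found in 13 and 12 nuclei, of which 10 were shared. AT3TE43610 and AT3TE43615 had r of 0.71, and all 28 nuclei with the former were among the 41 with the latter. AT1TE41795, AT2TE27820 and AT4TE30225 lie on different chromosomes and had r of 0.65 to 0.80 with each other. All these nuclei differ in depth, which the members share, and values of similar copies can also share reads.

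The gene most alike to each of these 276 members was sought in the same way among 12796 nuclear genes that reached 5 counts in 10 or more nuclei. This step was added after the values had been seen, and a correlation that is the highest of many has no test here. The highest r had a median of 0.45 (0.30 to 0.77). The gene lay on the chromosome of the element for 123 members (44.6%), whereas 20.8% of all pairs of a member and a gene share a chromosome. Where r was at least 0.5 this held for 56 of 86 members (65.1%), and at 0.6 for 25 of 30 (83.3%). Among those 25, which paired with 24 genes, the order of the element numbers matched the order of the gene starts on the TAIR10.1 chromosomes in 53 of the 54 pairs that could be compared.

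The closest pair was AT5TE11920 with AGP4 (AT5G10430), which encodes an arabinogalactan protein of the cell surface, with r of 0.77. All 13 nuclei with the element were among the 21 with at least 5 counts of the gene, although AGP4 reached 5 counts in only 11.3% of all nuclei. AT4TE13950 was found in 40 nuclei, and 38 of them had AT4G05631, a protein-coding gene with no symbol, found in 47 nuclei (r of 0.73). AT2TE20170 and AT2G12170, also protein-coding with no symbol, were each found in 10 nuclei and shared 9 (r of 0.73). AT3TE66600 shared 11 of its 14 nuclei with the cytochrome P450 gene AT3G44970 (r of 0.73). AT1TE65120 shared 9 of its 16 with AT1G52905 (r of 0.74).

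Complete overlap was seen for several others. All 18 nuclei with AT3TE64550 had CAF1a (AT3G44260), which encodes a subunit of the complex that shortens poly(A) tails, and all 24 with AT2TE01230 had NUDT17 (AT2G01670), of the Nudix hydrolase family. For AT4TE34015, 29 of 30 nuclei had LRX3 (AT4G13340), a leucine-rich repeat extensin of the cell wall, which was found in 35.5% of all nuclei. AT3TE32730 shared 53 of its 59 nuclei with AT3G22121, a long noncoding RNA gene that RefSeq notes as antisense to AT3G22120 (r of 0.55). AT2TE45280 shared 47 of its 67 with AT2G24755, a long noncoding RNA gene also noted as antisense (r of 0.59). Reads of an element and of a gene that overlaps it, or of a gene and its antisense partner, cannot be told apart from these counts.

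**Figure D5:**
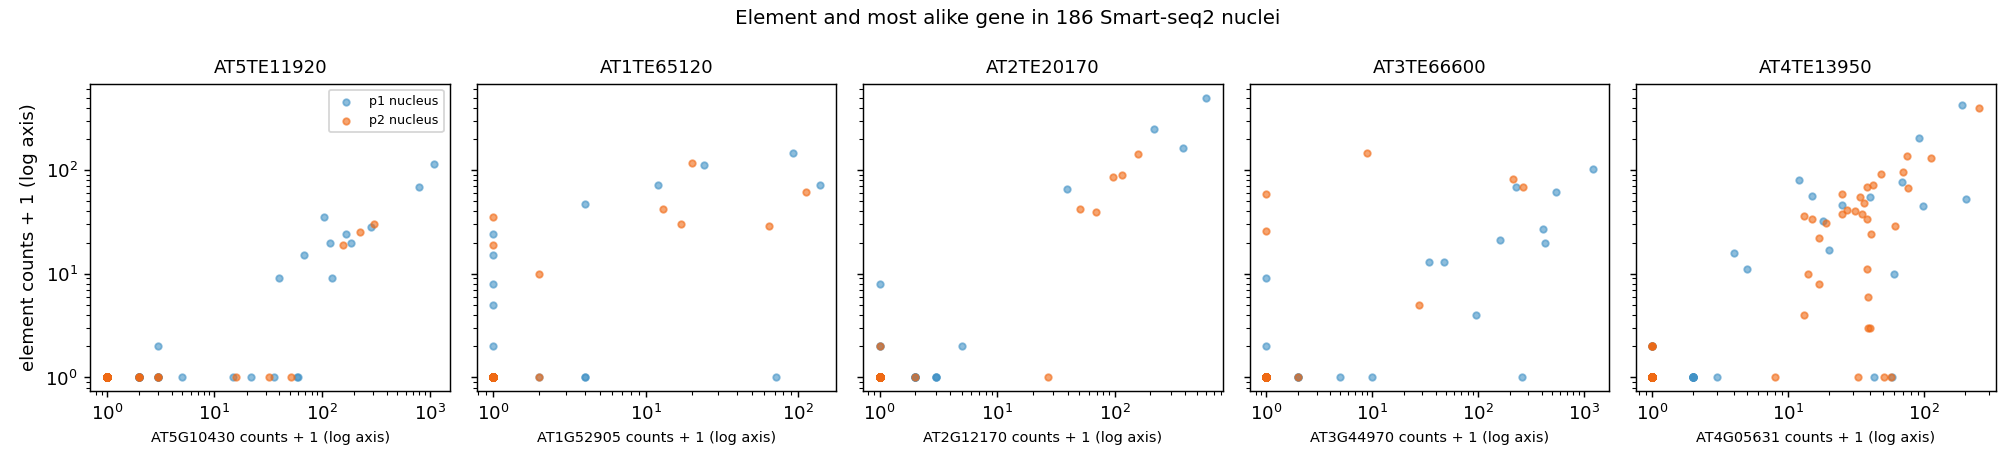
Counts plus 1 of an element (y axis, log scale) against those of its most alike gene (x axis, log scale) in 186 Smart-seq2 nuclei, for the 5 pairs on 1 chromosome with r of at least 0.7. Each point is 1 nucleus, in blue for p1 and orange for p2. All 13 nuclei with at least 5 counts of AT5TE11920 also have at least 5 of AGP4, and some nuclei with AGP4 have none of the element.

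Other alike pairs did not share a chromosome or involved genes found in empty wells. AT1TE24850 had VGDH1 (AT2G47030), of the pectin methylesterase family, as its most alike gene (r of 0.63), on chromosome 2, with 45 of the 62 nuclei shared. For AT5TE11315 it was ATYKT62 (AT5G58180), a gene for a membrane fusion protein of the SNARE type, with r of 0.52. All 136 nuclei with that gene had the element. Each of these had at least 50000 counts on genes, and the element reached 5 counts in every nucleus of that depth. Any gene found only at that depth would overlap completely. ATYKT62 also had 56 and 51 counts in the control wells, where AT5TE11315 had none. Its level was 10.7 CPM in the deep p1 nuclei and 316 CPM in the deep p2 nuclei (medians), a wider gap than the 182 and 410 CPM of the element.

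Genes of the silencing pathways, with the demethylase gene ROS1 that acts against them, were read beside the members. Over this list of 16 genes, the median share of nuclei (Smart-seq2) reaching 5 counts was 14.5% in p1 and 16.1% in p2, and its genes ranged from 1.08% to 38.7%. In the bulk wells 14 of 16 reached 5 counts in p1 and 15 of 16 in p2, where 51.6% and 51.3% of all nuclear genes did. MET1, which maintains CG methylation, was found in 18 p1 and 16 p2 nuclei, and DDM1, a chromatin remodeller needed for methylation of heterochromatin, in 18 and 9. The chromomethylase CMT3 was found in 17 and 11 nuclei, and KYP, the histone methyltransferase that works with it, in 14 and 21. Of the RNA-directed pathway, the polymerase subunits NRPD1 and NRPE1 were found in 5 and 9 and in 13 and 16 nuclei, RDR2 in 4 and 1, DCL3 in 4 and 6, DRM2 in 5 and 5 and AGO4 in 27 and 36. ROS1 was found in 19 and 22 nuclei. Over p1 and p2 together the list ran from 5 nuclei for RDR2 to 63 for AGO4, beside the median of 5 for a member. AGO9, with 1 count, was the only gene of the list with counts in a control well.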

How the data were processed

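Nuclear RNA was measured in 210 wells. The authors deposited estimated counts per feature, with 1 column per well and no scaling between wells. The submitters' processing notes name the build TAIR10 and the tool DESeq2, without roles; the aligner, the counting program and the filters are not given in the sources used here. Values were rounded to whole numbers. CPM are counts per 1000000 counts on nuclear, plastid and mitochondrial genes, without elements or reporter. Ratios of CPM carry intervals from the exact binomial distribution; shares carry Clopper-Pearson and levels Poisson intervals, all at 95%. A count of 0 entered a ratio as 3 counts. Pairs of counts that were both 3 or fewer got no ratio. Nor did pairs in which the 3 counts entered for a 0 gave a level above that of the other count. A difference was counted beyond 4-fold. Thinning was without replacement. Symbols came from RefSeq TAIR10.1.

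Members and lists were chosen with earlier results of these data known. Members named are the 20 found in the most Smart-seq2 nuclei, the 10 with the highest mean bulk CPM, the 5 highest in each Smart-seq3 group, and the 5 highest and lowest p1 over p2 ratios with at least 50 counts. Elements named beside an alike gene, in neighbouring pairs or as kept out by the control wells were chosen after their values were seen. The planned overlap with genes could not be made without element positions. No 2 nuclei had identical columns. The ratio and the rule were tested on simulated data. Python 3.11.15, numpy 2.4.6, pandas 2.3.3 and scipy 1.17.1 were used.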

Additional observations from a re-analysis of the deposited data

Results flagged for a closer look

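In the 8 p1 Smart-seq3 nuclei, 4 of 10 measures tested (levels of named members in CPM and values per well) had 1 nucleus far from the others. The gap lay between the outermost nucleus and its neighbour and was taken relative to the whole range. Its cut-off was meant to be passed by chance in about 1 of 20 groups. That rate cannot be applied here, because all 4 measures are elements named for their high summed p1 Smart-seq3 levels. Such a choice favours elements with 1 dominating nucleus. The gap was 0.970 of the range for AT3TE63065, 0.911 for AT5TE55640, 0.895 for AT4TE14145 and 0.632 for AT5TE40480. For the last 3 of these elements the outermost nucleus was replicate 8, with 306, 540 and 897 counts, and for AT3TE63065 it was replicate 6, with 390 counts. The summed p1 Smart-seq3 levels of these elements rest on those nuclei.

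The log2 ratio of bulk over summed Smart-seq2 nuclei had opposite signs in p1 and p2, with intervals that left out 0, for 3 of the 36 named members. It was 1.55 in p1 and -0.74 in p2 for AT2TE12510, -0.53 and 0.42 for AT2TE16945, and 0.28 and -0.61 for AT5TE72200. These differences between p1 and p2 were not tested, and each p number has 1 bulk well.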

How the results depend on the processing

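The 1362 members became 2067 when 2 nuclei sufficed and 771 when 5 were needed, and 965 to 1643 under the other settings of count, rounding, depth and control wells. Leaving out either control well gave 1370 to 1383. With a minimum of 1 count, members found were 384 in the p1 and 889 in the p2 bulk well, and 373 in p1 and 385 in p2 Smart-seq3. Against nuclear genes only, the bulk shares were 0.426% in p1 and 1.17% in p2. The median log2 ratio of bulk over sum became 1.46 in p1 without each member's top nucleus, and in p2 it became 0.89 so and 0.34 with equal weight for every nucleus. Among members with whole values throughout, 9.21% were found in the p1 bulk well, in place of 12.9%. Settings added after seeing the data were thinning, whole values only, and deep nuclei only for the members per nucleus and the share found in bulk. No paired analysis was possible because no test was made and replicate numbers name no shared plant or sort. Nuclei of different depth, 1 bulk well per p number, possible shared reads among copies and the absence of element positions limit these values.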
